A study of Mus musculus with 4 samples.

Results

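The Hedgehog genes examined here are the 3 ligand genes *Shh*, *Ihh* and *Dhh*, the receptor gene *Ptch1*, the ligand-binding inhibitor gene *Hhip*, the signal transducer gene *Smo* and the transcription factor genes *Gli1*, *Gli2* and *Gli3*. Members were taken as all gene probes of the array that carry one of these symbols. All 9 genes of 29924 gene names on the array were found, with 13 probes of 39429, and 4 of them (*Ptch1*, *Hhip*, *Smo* and *Gli1*) had several probes. Transcripts of cochlear ducts at E14.5 were measured on 4 Agilent 2-colour arrays, and each array paired mutant RNA (*Sox2-Tbx2LOF*) with control RNA from a pool of the same sex. The mutant embryos had the genotype Sox2(creERT2);Tbx2(fl/fl). CreERT2 is a Cre recombinase that acts only in the presence of tamoxifen. It was here inserted at *Sox2*, so that *Tbx2* is targeted in cells that express *Sox2*. The controls are labelled Tbx2(fl/n.d.) and are cre-negative according to the methods, so they differ from the mutant in the driver as well as in *Tbx2*. All embryos were of the NMRI strain, and all dams received 4 mg of tamoxifen at E12.5. Arrays 1 and 2 held female and arrays 3 and 4 male pools. The mutant carried Cy5 on arrays 1 and 3 and Cy3 on arrays 2 and 4. The ducts were whole and the spiral ganglion had been removed, so each pool mixes cell types, and fewer cells of a type cannot be told apart from less RNA per cell.

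Hedgehog ligands are secreted proteins that bind Patched receptors. Unbound PTCH1 holds back the membrane protein Smoothened, and once a ligand has bound, Smoothened passes the signal through the primary cilium to the GLI factors. GLI1 acts as an activator, GLI3 mainly as a repressor and GLI2 mainly as an activator, and *Ptch1*, *Gli1* and *Hhip* are themselves induced by the pathway, so their transcript levels are commonly read as its output. In the developing cochlea *Shh* is made by neurons of the spiral ganglion and keeps the progenitors of hair cells from differentiating early. *Dhh* is known from Schwann cells and from Sertoli cells of the testis, and *Ihh* from growth plate cartilage.

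The probes are 60 bases long, and 30 bases of those for the ligands, for the pathway readout *Gli1* and for the *Smo* probe that disagreed most with its partner are shown, 5′ to 3′ in the sense of the transcript, with mm9 coordinates from the array files. Capitals mark AATAAA, the usual signal for polyadenylation near the end of a transcript, which 3 of 13 member probes (*Ihh*, *Dhh* and *Gli3*) and 12.6% of all array probes hold. The stretch for the dimmer *Smo* probe shows a run of CA pairs. That probe holds 18 of them, and 0.0101% of array probes hold as many or more.
Dhh (chr15:98723466-98723495, minus strand): atttgtggccaaAATAAAgattctagagtg
Ihh (chr1:74991906-74991935, minus strand): atgttttggtctttcttttgtAATAAAaat
Shh (chr5:28783983-28784012, minus strand): tgagggaaagattattttgtgaggccaagc
Gli1 (chr10:126766967-126766996, minus strand): gaaagaacaaactttaataatgacacagtt
Smo, the dimmer probe (chr6:29710944-29710973, plus strand): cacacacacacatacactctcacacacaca

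*Dhh* fell and was the sole member to pass the test. Signals are normalized log2 intensities, and ratios are mutant over control on the log2 scale, fitted with limma across all 21042 tested genes. A gene passed at an adjusted p below 0.05. Of the 9 members 8 could be tested, since testing needed a clear signal (well above background) in 4 or more pools of 8, and *Shh* had none. Of the 8 tested, 1 was lower and 0 were higher in the mutant. Among all tested genes 5.18% passed, with 2.92% of tested genes lower and 2.26% higher. *Dhh* also fell by more than 1.5-fold, as 0.309% of tested genes did. The median ratio of the 8 tested members was −0.05, that of all tested genes 0.0024.

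For *Shh*, whose product is the ligand of the spiral ganglion, signals lay between 6.15 and 6.23 in the 4 mutant pools and between 6.20 and 6.27 in the 4 control pools. The lowest signal of any probe counted as well above background lay between 6.52 and 6.62 in these pools. The *Shh* probe was not well above background in any of the 8 pools and no fold change is given.

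The *Dhh* probe lies at chr15:98723465-98723524 (mm9) and gave a signal well above background in all 8 pools. Its signal in the mutant pools was 8.95, 8.53, 8.76 and 8.66 on arrays 1 to 4. In the control pools of the same arrays it was 9.81, 9.27, 9.72 and 9.61. All 4 mutant pools lay below all 4 control pools, and *Dhh* was the sole member of the 8 tested without overlap, whereas 4.27% of all tested genes had none. The ratio was −0.86, −0.74, −0.96 and −0.95 on arrays 1 to 4, a mean of −0.88 ± 0.10 (SD, n = 4 arrays), which is a fold change of 1.84. The limma SE was 0.04, the 95% confidence interval ran from −0.98 to −0.77, and the adjusted p was 7.94e-05. The size was alike in both dye orientations, at −0.91 with the mutant in Cy5 and −0.85 with the mutant in Cy3. It was −0.80 in female and −0.96 in male pools, a difference of 0.16 for which limma gave an adjusted p of 1.00. The 2 genes that flank *Dhh* in RefSeq, named after their values were seen, had ratios of −0.11 (*Rhebl1*, adjusted p = 0.131) and 0.01 (*Lmbr1l*, adjusted p = 0.956).

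**Figure D1:**
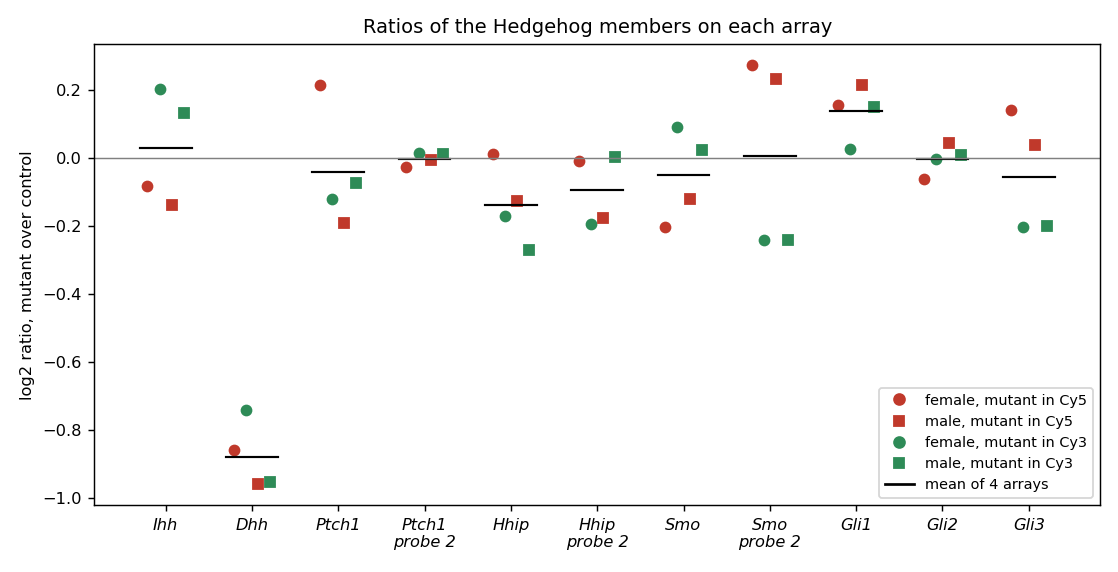
Log2 ratio of mutant over control (vertical axis) of the 11 tested probes of the 8 tested members. Each point is 1 array, circles are female and squares male pools, colours give the dye of the mutant, and bars are means of 4 arrays. The points of *Dhh* lie between −0.96 and −0.74, and those of all other probes between −0.27 and 0.27.

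*Ihh*, the cartilage ligand, did not pass. Its signal was 8.05, 8.11, 7.98 and 8.05 in the mutant and 8.13, 7.91, 8.12 and 7.92 in the control pools, so the groups overlapped. The ratio was −0.08 and −0.14 on the arrays with the mutant in Cy5 and 0.20 and 0.13 on those with the mutant in Cy3. Its sign thus followed the dye, and the mean was 0.03 ± 0.16 (SD, n = 4), with a 95% interval from −0.05 to 0.11 and an adjusted p of 0.698 (limma). Such a sign was seen for 5 of the 11 tested member probes (45.5%) and for 30.5% of all tested probes. The dye was a term of the fit.

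The 3 members that serve as readouts of the pathway did not pass. *Gli1* had signals of 15.04, 14.67, 14.85 and 14.69 in the mutant and 14.88, 14.64, 14.63 and 14.54 in the control pools. The mutant pool was the higher one on all 4 arrays, but the groups overlapped. The ratio of *Gli1* was 0.14 ± 0.08 (SD, n = 4; limma SE 0.04), with a 95% interval from 0.05 to 0.23, an unadjusted p of 0.00691 and an adjusted p of 0.0844 in limma. Its other probe was not well above background in any pool.

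*Hhip*, which encodes a membrane protein that takes up Hedgehog ligands, had signals of 10.92, 10.68, 10.78 and 10.54 in the mutant and 10.91, 10.85, 10.90 and 10.81 in the control pools. The mutant was the lower one on 3 of 4 arrays, and the pools of array 1 were alike. The ratio was −0.14 ± 0.12 (SD, n = 4; limma SE 0.04), with a 95% interval from −0.23 to −0.05 and an adjusted p of 0.100. The other *Hhip* probe gave −0.09 ± 0.11 (SD, n = 4) and an adjusted p of 0.341 in the limma fit over all tested probes. *Gli1* and *Hhip* thus had mean ratios of like size and opposite sign.

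*Ptch1* had signals of 10.07, 9.33, 9.48 and 9.62 in the mutant and 9.85, 9.45, 9.67 and 9.70 in the control pools. The mutant was higher on array 1 and lower on the other arrays. The ratio was −0.04 ± 0.18 (SD, n = 4) with a 95% interval from −0.18 to 0.10 and an adjusted p of 0.770 (limma). The second *Ptch1* probe had a mean ratio of −0.00051 ± 0.02 (SD, n = 4).

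The signal transducer and the remaining factors did not pass either. The brighter probe of *Smo* had a ratio of −0.05 ± 0.13 (SD, n = 4) and an adjusted p of 0.501 in limma. The dimmer probe, with the CA run shown above, had ratios of 0.27, −0.24, 0.23 and −0.24 on arrays 1 to 4. Its sign followed the dye on every array, opposite to that of the brighter probe, and the mean ratio of 0.0067 had an adjusted p of 0.943 in limma. *Gli3* had a ratio of −0.06 ± 0.17 (SD, n = 4; adjusted p = 0.446 in limma), and *Gli2* one of −0.0021 ± 0.04 (SD, n = 4; adjusted p = 0.984 in limma). Over the 7 tested members without a pass, the 95% intervals lay between −0.23 and 0.23, or within 1.17-fold in either direction. Each interval holds for 1 gene alone and for the average over whole ducts, so a larger change in a few cells is not bounded.

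No gene passed the test of a difference in the genotype effect between the sexes (0 of 21042 genes, 0%, in limma). An unadjusted p below 0.05 was seen for 558 genes, or 2.65% of those tested. The count that passed was 0 also from Agilent's processed signals and without the dye term. Among the members the difference, female minus male, ran from −0.09 (*Gli1*) to 0.18 (*Ptch1*). Each sex was represented by 2 arrays.

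**Figure D2:**
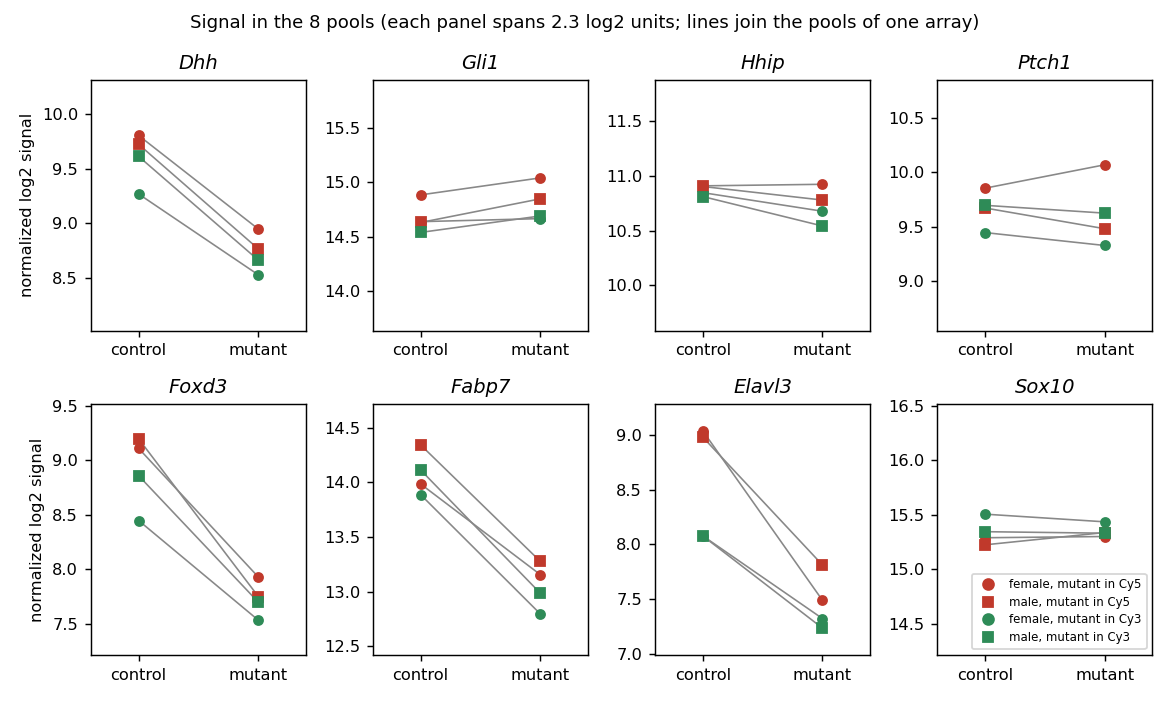
Normalized log2 signal (vertical axis) in the control and mutant pools for 4 members and 4 marker genes, each panel spanning 2.3 log2 units around its own centre. Lines join the 2 pools of an array, circles are female and squares male pools, and colours give the dye of the mutant. *Dhh*, *Foxd3*, *Fabp7* and *Elavl3* were lower in the mutant on all 4 arrays, while *Sox10* had a mean ratio of 0.01.

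Beyond the members, 55 genes of the pathway in 5 lists were examined, and 53 of them were tested. Of these 3 were lower, 1 was higher and 49 did not pass, with a median ratio of 0.0075. The share that passed was 7.55%, beside 5.18% of all tested genes. This share counts *Foxa2*, which could be tested through its control pools alone. The counts of the lists sum to more because 1 gene stands in more than 1 list.

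Among the genes for ligand release 1 of 5 tested genes was higher and 0 were lower. *Scube1*, a secreted protein of the family that helps release ligands from cells, rose by 0.21 ± 0.10 (SD, n = 4) with an adjusted p of 0.0247 in limma and ratios of 0.12, 0.20, 0.19 and 0.35 on arrays 1 to 4. Its adjusted p in limma was 0.0984 without array 1, 0.157 without array 3 and 0.106 without array 4. *Hhat*, the acyltransferase of the ligands, had a ratio of −0.01 (adjusted p = 0.919), and *Disp1*, the releasing membrane protein, also −0.01 (adjusted p = 0.885). *Disp2* was not tested.

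None of 6 receptor and co-receptor genes, 16 transducer genes and 10 genes of the primary cilium passed. Their median ratios were 0.04, 0.01 and 0.0019. The co-receptor genes *Gas1*, *Boc* and *Cdon* had ratios of 0.09, 0.05 and 0.03. *Sufu*, which restrains the GLI factors, had a ratio of 0.04 (adjusted p = 0.629), and *Kif7*, a ciliary kinesin of the pathway, one of 0.05 (adjusted p = 0.586). Over these lists the ratios ran from −0.10 (*Efcab7*) to 0.15 (*Gsk3b*).

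Of 17 tested genes that are known as GLI targets in one tissue or another, 3 were lower, 0 were higher and 14 did not pass, and the median ratio of the list was 0.0075. The share that was lower was 17.6%, beside 2.92% of all tested genes, and it counts *Foxa2*, whose direction was fixed by the filter. The 3 that fell are also controlled by other pathways. *Foxa2*, a forkhead factor of the floor plate and endoderm, had signals of 7.85, 7.47, 8.04 and 7.64 in the control pools. Its brightest probe was well above background in all 4 control pools and in no mutant pool. It thus met the testing filter through the control pools alone, which fixed the direction of its change beforehand. Its fold change is only bounded, and *Foxa2* was at least 2.15-fold lower in the mutant. Because of this filter, its adjusted p of 4.31e-05 in limma is a description and no support for the fall. The other *Foxa2* probe was well above background in 1 of the 8 pools, a control pool, and gave a limit of at least 1.12-fold lower. *Ccnd1*, which encodes the G1 cyclin D1, had ratios of −0.24, −0.55, −0.27 and −0.26 on arrays 1 to 4. The mean was −0.33 ± 0.14 (SD, n = 4) and the adjusted p 0.0103 in limma. For *Ccnd1* this p was 0.0888 without array 1 and 0.102 without array 3. *Foxm1*, a forkhead factor of dividing cells, had a mean of −0.17 ± 0.04 (SD, n = 4; adjusted p = 0.0333), which was between 0.0779 and 0.132 when any 1 array was left out (limma). The other *Foxm1* probe gave −0.14 ± 0.12 (SD, n = 4) and an adjusted p of 0.190 in the limma fit over all tested probes. The targets without a pass included *Mycn* at −0.08, *Foxf2* at −0.08, *Foxf1* at 0.09, *Bcl2* at −0.03 and *Sfrp1* at 0.14. *Hand2* was not tested.

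**Figure D3:**
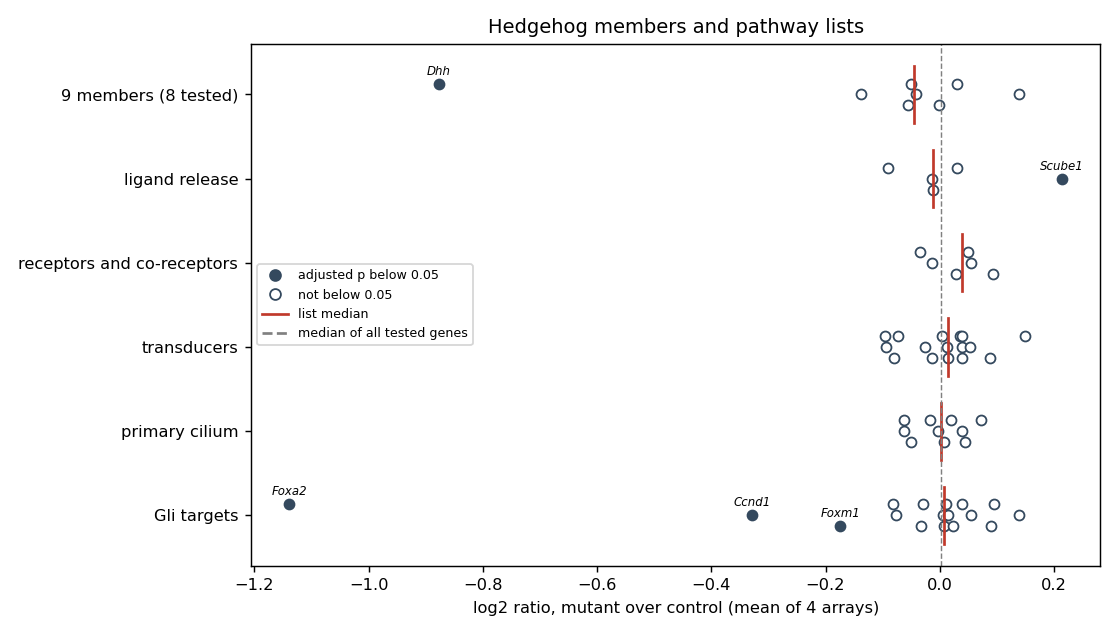
Log2 ratio of mutant over control, as the mean of 4 arrays (horizontal axis), of the members and of the genes in the 5 pathway lists (rows). Filled points have an adjusted p below 0.05, red bars are list medians and the dashed line is the median of all tested genes. *Dhh*, *Foxa2*, *Ccnd1* and *Foxm1* lie to the left and *Scube1* to the right as the genes that passed, and the point of *Foxa2* is a fitted mean for which the text gives a lower limit only.

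Most neuronal markers and 2 Schwann cell markers fell in the same pools as *Dhh*. Of 6 Schwann cell markers, 2 were lower, 1 was higher and 3 did not pass, and the median ratio of the list was −0.04. The share that was lower was 33.3%, beside 2.92% of all tested genes. *Foxd3*, a factor of the neural crest and of early Schwann cells, had a ratio of −1.17 ± 0.22 (SD, n = 4; adjusted p = 6.67e-05), and *Fabp7*, a fatty acid binding protein of early glia that is also known from inner cells of the cochlear duct, one of −1.03 ± 0.14 (SD, n = 4; adjusted p = 5.03e-05) in limma. *Sox10*, a factor of neural crest and glia that otic epithelium also expresses, had a ratio of 0.01 (adjusted p = 0.917), and *Erbb3*, the neuregulin receptor gene of Schwann cells, one of −0.09 (adjusted p = 0.400). The mean signal over the 6 markers lay between 11.663 and 11.753 in the mutant and between 12.001 and 12.094 in the control pools. This mean includes *Foxd3* and *Fabp7*, and the 3 markers without a pass had ratios between −0.09 and 0.09.

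Of 12 tested neuronal markers 8 were lower, 1 was higher and 3 did not pass, with a median ratio of −0.37. The share that was lower was 66.7%, beside 2.92% of all tested genes. The ratios ran from −1.08 (*Elavl3*, an RNA-binding protein of neurons, adjusted p = 0.000101) to 0.20 (*Isl1*, a factor of neurons and of otic cells, adjusted p = 0.0245) in limma. The mean signal over the 12 markers lay between 10.43 and 10.59 in the mutant and between 10.74 and 10.99 in the control pools. *Neurod1*, a defining factor of the ganglion, was not well above background in any mutant pool and in 2 of 4 control pools for its brighter probe. The part of glia and neurons in the fall of *Dhh* was not tested.

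**Figure D4:**
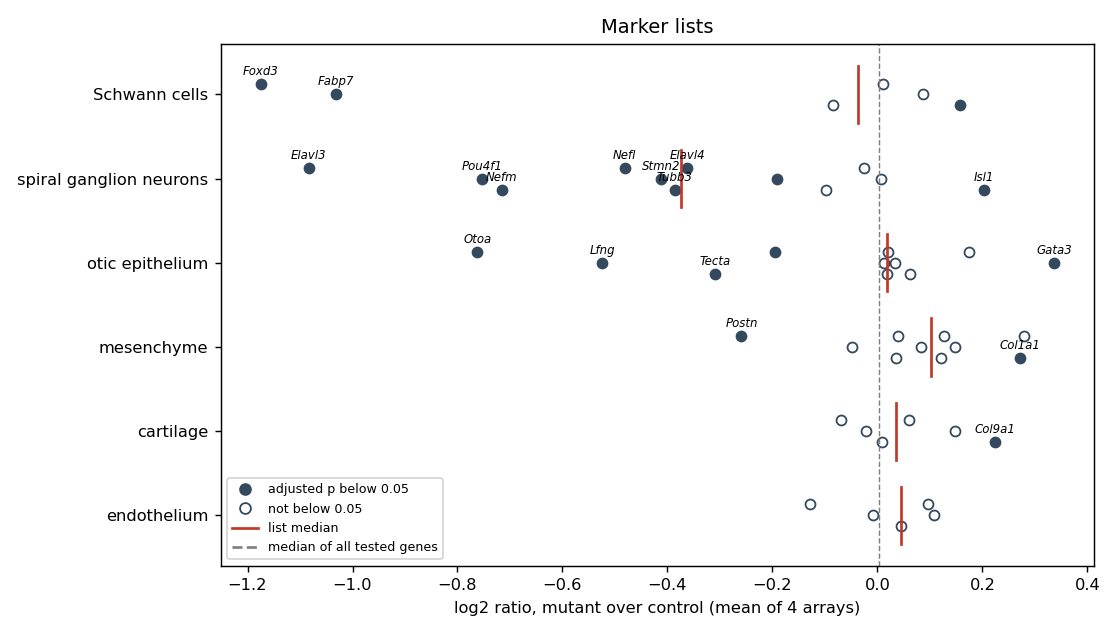
Log2 ratio of mutant over control, as the mean of 4 arrays (horizontal axis), of the tested genes in 6 lists of cell type markers (rows). Filled points have an adjusted p below 0.05, red bars are list medians and the dashed line is the median of all tested genes. The median of the neuronal list is −0.37, and those of the other lists lie between −0.04 and 0.10.

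Markers of other tissues were also measured, and their signals alone do not show which tissues the pools held. All 11 markers of the otic epithelium, 10 of mesenchyme and 5 of endothelium and 6 of 7 of cartilage were tested. Of the epithelial markers 4 were lower and 1 was higher (36.4% lower, beside 2.92% of all tested genes), with a median of 0.02 and ratios from −0.76 (*Otoa*) to 0.34 (*Gata3*). Of the mesenchymal markers 1 was lower and 1 was higher (median 0.10), of the cartilage markers 0 were lower and 1 was higher (median 0.03), and of the endothelial markers none passed (median 0.04). *Col10a1*, a marker gene of hypertrophic cartilage, was not tested.

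The genes whose signals varied most like those of a member over the 8 pools were found by Pearson's r after the mean of each dye had been taken off, among 21041 other tested genes. For *Dhh*, a choice made after its values were seen, they were *Foxd3* (r = 0.996), *Rims3* (r = 0.995), a gene of presynaptic terminals, and *Lsamp* (r = 0.993), a gene of neuronal cell adhesion. These had ratios of −1.17, −0.51 and −0.57. For *Gli1* they were *Fryl*, *LOC106740* and *Sacm1l* (r = 0.988, 0.986 and 0.985), and for *Ptch1* they were *Klhl23*, *Lage3* and *Gm2137* (r = 0.996, 0.996 and 0.995). The 8 points share 4 arrays and, for *Dhh*, the difference between the genotypes, so these values are descriptions.

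The promoters of 7 members were in the RefSeq table for GRCm38.p6 (not those of *Shh* and *Gli1*). In the 250 bases before the start site, the GLI motif GACCACCCA and the T-box motif TCACACCT were searched on both strands. They occur in 0.225% and 1.12% of all 32851 promoters, and in 0 of the 7 members. The *Dhh* window is shown since *Dhh* was the member that fell. It holds 4 copies of the GC box GGGCGG on either strand, marked in capitals, which 6 of the 7 members and 32.7% of all promoters contain.
Dhh, 250 bases before the start (GRCm38.p6, chr15:98898541-98898790, minus strand): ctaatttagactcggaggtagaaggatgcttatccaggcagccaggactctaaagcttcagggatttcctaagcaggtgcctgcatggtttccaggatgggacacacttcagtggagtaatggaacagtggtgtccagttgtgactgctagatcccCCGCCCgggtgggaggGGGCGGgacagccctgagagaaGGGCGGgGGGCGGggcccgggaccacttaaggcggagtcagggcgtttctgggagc

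In the arrays as a whole, 1 slide held all 4, 8.29 to 8.56% of gene spots were flagged, no spot was saturated, and 69.2 to 72.0% of probes were well above background. Ratios of arrays with the same dye orientation correlated across genes at r = 0.679 and 0.616, and those of opposite orientation between −0.10 and 0.07, so much of the variation common to arrays was between the dyes. The targeted gene *Tbx2* had a ratio of −0.12 ± 0.10 (SD, n = 4; adjusted p = 0.124 in limma), measured by a probe whose position relative to the deleted part was not assigned here. One *Esr1* probe gave a clear signal in all mutant and no control pools. Mutant pools exceeded control pools at least 4.24-fold for it, and the driver carries a part of an oestrogen receptor. This probe met the testing filter through the mutant pools alone, which fixed its direction beforehand. Its adjusted p of 5.96e-06 in limma is therefore a description.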

How the data were processed

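The authors hybridised RNA of 4 mutant and 4 control pools to 4 arrays and deposited the scanner output of Agilent Feature Extraction 10.7.3.1, with the intensity of each spot (mean over pixels) and of its local background (median) in both dyes, and Agilent's processed intensity. The authors also deposited a value table with a score per probe, which behaved as a fold change with a sign, mutant against control (r between 0.912 and 0.942 with the log2 ratios computed here, median 1 on each array). How these scores were scaled and centred is not given in the sources used here.

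Background was corrected by normexp (offset 50) and ratios by loess within arrays, without control and flagged spots. Each probe has 4 spots, and the unflagged ones were averaged. A measurement counted as well above background where 50% or more of those spots did. The 27963 probes that reached this in 4 or more of 8 measurements were tested, and the brightest stood for its gene. Signals of single pools were normalized by loess and Aquantile. Genes were tested with limma 3.58.1 in R 4.3.3, with genotype and dye as terms, 2 residual and 5.65 prior degrees of freedom, and Benjamini-Hochberg adjustment over all tested genes. Scripts were tested on simulated data. SAM, the program of the methods, was not used here. Lower limits set the brighter group's mean signal against the higher, per array, of the dim probe's own signal and the lowest signal counted as well above background.

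The members and lists were chosen with earlier results of these data known. Named were all members, *Tbx2* and *Esr1*, the pathway list genes that passed, the 3 most similar genes of *Ptch1* and *Gli1*, and the ends of each marker list. *Shh* was left out of the similarity search as it was below background. Other list genes were named for their role after their values were seen. Some list genes enter the counts but are not reported here by name. The alternatives were other signals, offsets, filters and centring, no dye term, probe means, separate channels, the value table and leaving out each array. The pools are described as independent. The p-values rest on the spread of the ratios between arrays, which limma moderates with the spread seen over all tested genes. Arrays of E18.5 cochleae were not used here.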

Additional observations from a re-analysis of the deposited data

Results flagged for a closer look

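Over 45 groups of 4 values (ratios and signals of the tested member probes and of the 4 pathway genes that passed), 2 had a value set apart from the others by Dixon's test, which flags about 1 in 20 groups by chance. The ratio of *Ccnd1* on array 2 was −0.55, against −0.27 to −0.24 on the other arrays. The signal of *Scube1* in the control pool of array 4 was 11.75, against 12.14 to 12.21 in the other control pools. No value of a member was set apart in this way.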

How the results depend on the processing

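*Dhh* was lower and passed the test under all 14 alternatives, with ratios from −1.01 (Agilent's processed signals) to −0.83 (without array 4) and adjusted p values in limma from 3.04e-08 to 0.0183, and it was the sole member to pass in each. When 1 array was left out its ratio lay between −0.93 and −0.83. Of 112 member ratios under alternatives, 109 kept their direction and their side of the threshold and 3 changed sign. These were *Ptch1* without array 3 (0.060), and *Gli2* without array 1 (0.024) and without array 2 (0.0011). Leaving out any 1 array gave −0.14 to 0.060 for *Ptch1* and −0.029 to 0.024 for *Gli2*, and the cause was not tested. The count of genes that passed was 1091. It was 616 with Agilent's processed signals, 264 without a dye term, 414 from the value table, and 411 to 1278 when 1 array was left out. With separate channels it was 217 without and 1982 with the array as a replicate block (intraspot correlation 0.700). The 4 pathway genes that passed became 2 with Agilent's processed signals, 1 without a dye term, and 1 to 4 when 1 array was left out. Of *Ccnd1*, *Foxm1* and *Scube1*, 5, 9 and 8 of 14 alternatives lost the call, and *Foxa2* kept it in 13 of 13. Most of these 13 used the filter that had fixed the direction of *Foxa2* beforehand. The remaining alternative, a filter of all 8 measurements, left *Foxa2* out because it was well above background in control pools only. Slide and scan could not be fitted as batches because all 4 arrays share 1 slide and 1 scan. The number of arrays limits the precision, and dim probes such as those of *Shh* and *Foxa2* carry only limits.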
